A study of Mus musculus with 4 samples.

Results

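Serpins are a family of proteins that share 1 fold, and most of them block serine or cysteine proteases by a trapping mechanism in which the target cleaves a loop of the inhibitor and is locked to it. The family is divided into clades named by letters. Clade B members act mainly inside cells and are prominent in stratified epithelia, clade A members are mostly secreted plasma proteins, and single members such as the collagen chaperone Serpinh1 inhibit no protease. The serpin genes of these arrays were taken as all probe sets whose only platform symbol starts with Serpin, with the probe set of the highest mean log2 signal standing for each gene. This gave 39 probe sets and 30 genes of 12393 genes in all: 8 of clade A, 14 of clade B, 2 each of clades F and I, and 1 each of clades C, D, G and H. The rule reads symbols alone, and levels only to pick a gene's probe set.

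The arrays were hybridised with RNA of living GFP-positive cells sorted from back skin of mice at postnatal day 49. Both groups came from mice that express a fusion of GFP and actin from the keratin 14 promoter (K14-GFP-actin), which is active in basal keratinocytes. The total group (2 arrays) held every living GFP-positive cell, and the bulge group (2 arrays) held GFP-positive cells gated for high α6 integrin and high CD34, which marks basal cells of the bulge, the stem cell niche of the hair follicle. Bulge cells were not removed from the total sort, so the contrast sets bulge cells against a mixture that includes them. No label states that replicates are separate animals, so p-values speak to variation among these samples alone, and that variation may be technical. In such mixtures, fewer cells of a type and less RNA per cell cannot be told apart.

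Of the sort genes, Cd34 was 15.1-fold higher in the bulge group, Itga6 differed by -0.91 and Krt14 by -0.30 on the log2 scale. The array medians of the deposited signal ranged from 124 to 145. A background level was set at a log2 signal of 7.23 (signal 150.0), the 95th percentile of 67 olfactory, vomeronasal and taste receptor genes. Differences below are bulge minus total in log2 signal, and values in a sentence run total replicate 1, total replicate 2, bulge replicate 1, bulge replicate 2. "Passed" means an adjusted p under 0.05 over all genes in a limma fit. The principal fit used one common variance prior and called 0 of 12393 genes (0%), with 1297 genes (10.5%) at an unadjusted p under 0.05. The trended fit lets that prior vary with signal and called 134 genes (1.08%), of which 69 were higher (0.557%) and 65 lower (0.524%). The verbs rose and fell are used for genes that passed in the trended fit.

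The clade B genes above background on mouse chromosome 1 and chromosome 13 carry most of the values described below. The promoter windows of the 5 chromosome 1 genes are shown first, because 3 of these genes are neighbours and yet differed in direction between the sorts. Each window runs from 250 bases before to 50 bases after a RefSeq gene start (build GRCm38.p6) and is written 5′ to 3′ on the gene's strand. Capitals mark TGANTCA, a loose form of the AP-1 core (TGAGTCA, which is TGACTCA on the other strand) that also admits A or T at its centre, and TATAAA, the TATA box, on either strand.
Serpinb5 (chr1:106860925-106861224, plus strand): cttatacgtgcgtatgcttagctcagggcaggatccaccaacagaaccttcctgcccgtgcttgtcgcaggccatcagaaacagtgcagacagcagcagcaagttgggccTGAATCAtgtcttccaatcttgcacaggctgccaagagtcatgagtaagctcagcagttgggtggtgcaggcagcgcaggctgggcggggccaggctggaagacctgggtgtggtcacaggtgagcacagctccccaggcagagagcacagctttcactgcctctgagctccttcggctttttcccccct
Serpinb11 (chr1:107362064-107362363, plus strand): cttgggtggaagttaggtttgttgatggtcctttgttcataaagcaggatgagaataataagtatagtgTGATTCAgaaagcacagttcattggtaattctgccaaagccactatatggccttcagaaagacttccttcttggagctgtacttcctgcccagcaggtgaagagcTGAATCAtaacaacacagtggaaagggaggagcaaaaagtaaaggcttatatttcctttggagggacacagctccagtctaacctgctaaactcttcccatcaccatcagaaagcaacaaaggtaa
Serpinb7 (chr1:107422439-107422738, plus strand): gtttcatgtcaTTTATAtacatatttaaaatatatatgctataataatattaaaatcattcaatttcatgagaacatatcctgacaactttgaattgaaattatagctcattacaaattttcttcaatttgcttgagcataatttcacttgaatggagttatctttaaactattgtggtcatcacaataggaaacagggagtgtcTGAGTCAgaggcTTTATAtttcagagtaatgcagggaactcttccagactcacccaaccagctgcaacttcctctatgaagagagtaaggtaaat
Serpinb2 (chr1:107511173-107511472, plus strand): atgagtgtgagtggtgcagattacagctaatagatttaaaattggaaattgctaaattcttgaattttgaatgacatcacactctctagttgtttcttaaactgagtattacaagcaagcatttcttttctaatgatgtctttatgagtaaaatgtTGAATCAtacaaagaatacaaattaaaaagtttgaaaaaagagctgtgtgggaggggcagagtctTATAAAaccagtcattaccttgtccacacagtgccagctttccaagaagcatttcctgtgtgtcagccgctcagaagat
Serpinb8 (chr1:107589756-107590055, plus strand): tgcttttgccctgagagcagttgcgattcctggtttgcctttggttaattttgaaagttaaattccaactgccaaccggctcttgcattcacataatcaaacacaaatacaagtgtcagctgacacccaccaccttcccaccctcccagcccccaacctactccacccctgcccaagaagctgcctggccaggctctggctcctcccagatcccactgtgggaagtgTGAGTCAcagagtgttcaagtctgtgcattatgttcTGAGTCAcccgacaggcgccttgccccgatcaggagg
The window of Serpinb6c, a clade B gene of chromosome 13, is printed as a counterpart without TGANTCA.
Serpinb6c (chr13:33905142-33905441, minus strand): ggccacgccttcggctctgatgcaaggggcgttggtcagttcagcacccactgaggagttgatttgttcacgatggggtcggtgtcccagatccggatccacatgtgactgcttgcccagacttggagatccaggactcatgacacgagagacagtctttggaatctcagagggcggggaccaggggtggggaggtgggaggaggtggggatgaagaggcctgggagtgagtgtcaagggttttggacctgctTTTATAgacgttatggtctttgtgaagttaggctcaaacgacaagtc

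Serpinb2, Serpinb7, Serpinb5, Serpinb8 and Serpinb11 all had TGANTCA in a window, which is 5 of 5 clade B members on chromosome 1. Among the 8 clade B members of chromosome 13 with a window, 0 had it. Of the 6 clade A members with a window, 2 had it (Serpina1b and Serpina1c), so 7 of all 26 members with a window did. Both clade A matches read TGACTCA, the AP-1 core on the other strand, and both genes were below background on all arrays. TGANTCA was found in 7.81% of all 32851 windows, and in at least 1 window of 8.97% of the 27025 genes of the table. Of the 6 other clade B genes of chromosome 1 with a window, 2 had the motif (Serpinb10 and Serpinb12), and of the 7 others of chromosome 13 with a window, 0. The strict AP-1 core TGAGTCA was in 5.2% of all windows and, among these 5 genes, in those of Serpinb7 and Serpinb8 alone; the matches in Serpinb2, Serpinb5 and Serpinb11 have A or T at the centre. In the printed windows its first base lay 94 bases before the start of Serpinb2, 45 before that of Serpinb7 and 140 before that of Serpinb5. Serpinb11 had the motif at 181 and 76 bases before the start, and Serpinb8 had it at 23 bases before and again after the start. TATAAA lay 29 bases before the start of Serpinb2 and, on the other strand, 33 before that of Serpinb7, and it was in 13.6% of all windows. GGGCGG, the core of the GC box, was in 35.7% of windows and in 4 of the 8 clade B members of chromosome 13 (Serpinb6a, Serpinb6b, Serpinb6c and Serpinb9) against 1 of 5 on chromosome 1 (Serpinb5). These 4 were among 10 motifs searched on both strands, the others being CCAAT, GAANNTTC, CANNTG, GGGNNTTCC, TGACGTCA and CACGTG. Every match of CACGTG is also one of CANNTG, and every match of TGAGTCA is also one of TGANTCA. The motifs were chosen after the expression values had been seen, TGANTCA reads the same on both strands, and a match is a description of letters, not of binding.

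Across the family, 14 of the 30 serpin genes were above background on at least 1 array and 16 were below it on all 4. In the principal fit 0 serpin genes passed, and 4 (13.3%, against 10.5% of all genes) had an unadjusted p under 0.05: Serpinb2, Serping1, Serpinb6c and Serpinb1b. In the trended fit 1 of 30 passed, Serpinb2, against 1.08% of all genes. A fit restricted to the 7249 genes with a group mean above background called the same serpin alone, against 3.06% of its genes. The groups did not overlap for 12 of 30 serpin genes (40%), close to the 38.5% of all genes. By direction, 9 were higher in the bulge group, where all genes gave 18%, and 3 were lower, where all genes gave 20.5%. Of the 9 higher genes, 3 (Serpinb1b, Serpinb6b and Serpinf1) were below background on all arrays. The median difference of the 30 genes was 0.56 (range -2.93 to 1.92), beside -0.02 for all genes, and with values under the background level set to that level it was 0. Among the 14 members above background on at least 1 array, 6 were higher and 3 lower without overlap, where all 7789 such genes gave 20% and 21.4%.

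**Figure D1:**
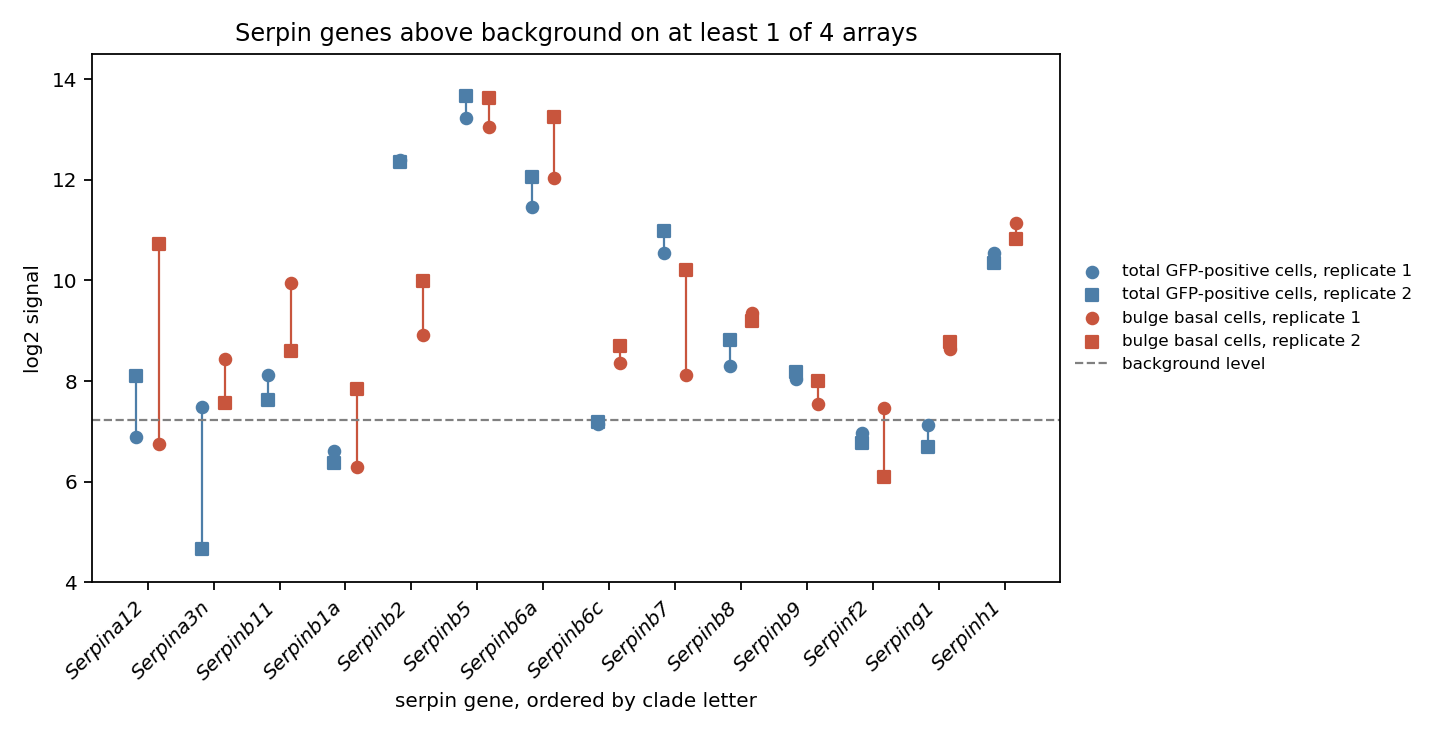
Log2 signal of the 14 serpin genes above background on at least 1 array, ordered by clade letter. Blue points are the 2 total arrays and red points the 2 bulge arrays (circle, replicate 1; square, replicate 2), and the dashed line is the background level of 7.23. Both Serpinb2 bulge values (8.91 and 9.99) lie below both total values (12.40 and 12.35), while the Serpina12 bulge values are far apart (6.74 and 10.73).

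Serpinb2 encodes plasminogen activator inhibitor type 2, an inhibitor of urokinase that is held mostly inside the cell. Its log2 signals were 12.40, 12.35, 8.91 and 9.99, which correspond to deposited signals of 5409.8, 5215, 480.5 and 1018. Both bulge arrays were low and both total arrays were high, with no overlap and almost no spread between the total arrays. Serpinb2 fell 7.60-fold, from 12.37 ± 0.04 (SD, n = 2) to 9.45 ± 0.77 (SD, n = 2). The difference was -2.93 ± 0.44 (SE; 95% interval -3.99 to -1.86), and the adjusted p of the trended limma model was 0.0479. The principal limma fit gave an adjusted p of 0.110 for the same difference. Without total replicate 1 or total replicate 2 the trended limma fit gave adjusted p-values of 0.233 and 0.239 for Serpinb2, and without bulge replicate 1 or 2 it gave 0.0221 and 0.00708. Those fits take the spread of the lone array from the intact pair. Serpinb2 stayed above background on all 4 arrays, so its bulge level was measurable.

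Serpinb7, the gene of megsin, lies next to Serpinb2 and was also lower in the bulge group without passing. It had log2 signals of 10.54, 10.99, 8.12 and 10.21. Both bulge values lay below both total values, but bulge replicate 2 was near the total arrays and bulge replicate 1 far below them. The difference was -1.60 ± 0.75 (SE; 95% interval -3.51 to 0.32), with adjusted p-values of 0.587 in the principal and 0.493 in the trended limma fit. Without bulge replicate 2 it was -2.64, and the trended limma model gave an adjusted p of 0.0154, and without bulge replicate 1 it was -0.55.

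Serpinb11, the neighbour of Serpinb7 on its other side, went the other way. It encodes a clade B serpin whose mouse form inhibits trypsin. The log2 signals were 8.12, 7.62, 9.95 and 8.61, so both bulge values were above both total values and replicate 1 of the bulge group was the highest. The difference was 1.41 ± 0.57 (SE; 95% interval -0.05 to 2.86; adjusted p of 0.499 in the principal and 0.387 in the trended limma fit). Without bulge replicate 2 it was 2.08, and the trended limma model gave an adjusted p of 0.0464. Without bulge replicate 1 it was 0.73, with 0.407 as the adjusted p of that limma model. In the RefSeq order, Serpinb11, Serpinb7 and Serpinb2 follow each other with no other protein-coding gene between them.

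Serpinb8 lies on the far side of Serpinb2, beyond Serpinb10, and encodes an inhibitor of furin-like proprotein convertases. Its log2 signals of 8.31, 8.81, 9.36 and 9.20 did not overlap between groups and were higher in the bulge group. The difference of 0.72 ± 0.40 (SE; 95% interval -0.29 to 1.73) did not pass. Furin itself had a difference of 0.10.

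Serpinb5 encodes maspin, an epithelial serpin that does not trap proteases. Its log2 signals were 13.23, 13.66, 13.05 and 13.63, and the groups overlapped. The difference was -0.11, with a 95% interval of -1.19 to 0.98. Its other probe sets gave 0.03 and 0.20, so the 3 probe sets differ in sign around 0. The groups overlapped for 2 of them and did not for the probe set at 0.20 (11.19, 11.08, 11.38 and 11.28).

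**Figure D2:**
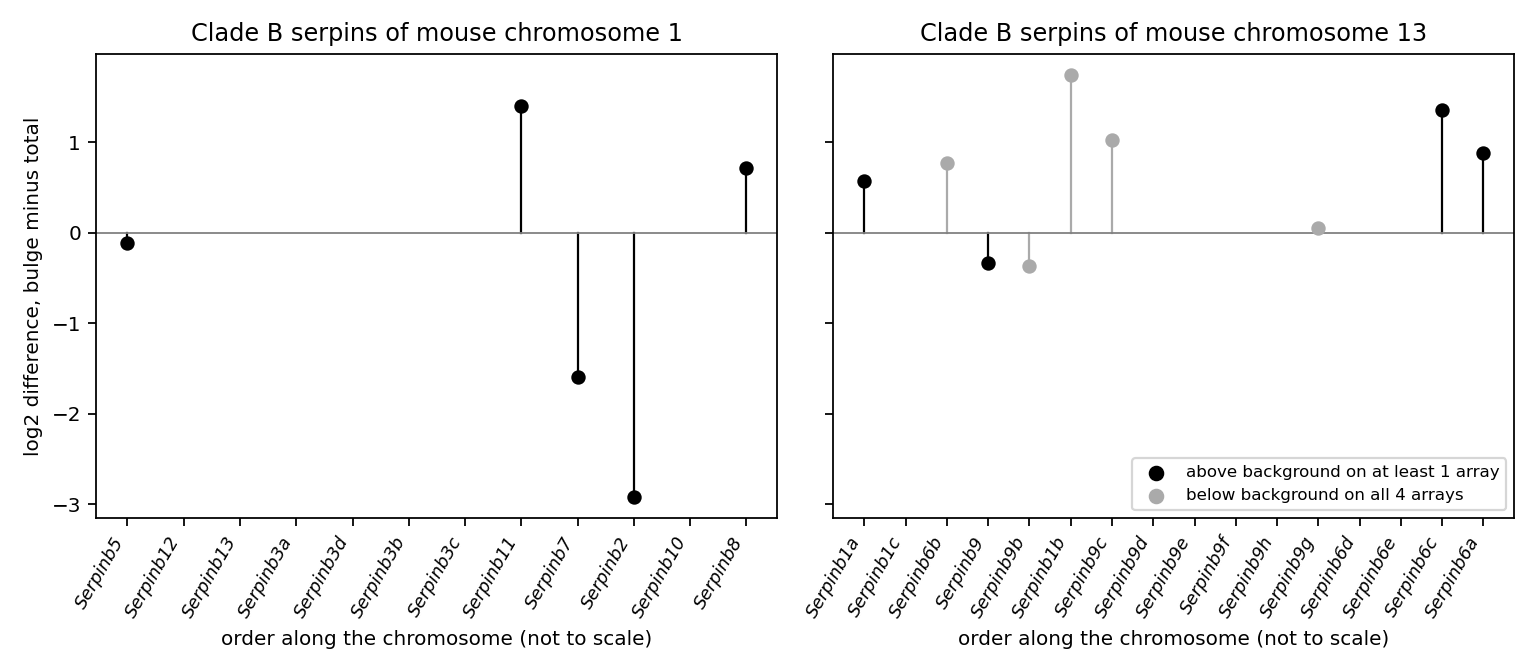
Log2 difference (bulge minus total) of clade B serpin genes in their RefSeq order along mouse chromosome 1 (left) and chromosome 13 (right), not to scale. Black points are genes above background on at least 1 array, grey points genes below it on all 4, and names without a point are genes not analysed here. Serpinb11 (1.41), Serpinb7 (-1.60) and Serpinb2 (-2.93) are adjacent.

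On chromosome 13, the clade B genes above background were Serpinb6a, Serpinb6c, Serpinb9 and Serpinb1a, and none of them passed in either limma fit. Serpinb6c had log2 signals of 7.15, 7.19, 8.36 and 8.71, below background on both total arrays and above it on both bulge arrays. Its difference was 1.36 ± 0.38 (SE; adjusted p of 0.275 in the principal and 0.198 in the trended limma fit). Against the background level the ratio is at least 2.47-fold, a bound that leaves out sampling error. The suffix of its probe set (_s_at) marks probes shared between transcripts, so signal from close relatives such as Serpinb6a cannot be separated from it.

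Serpinb6a, an inhibitor of cathepsin G and of several trypsin-like proteases, lies beside Serpinb6c. It gave log2 signals of 11.46, 12.05, 12.04 and 13.25. The groups overlapped narrowly, since total replicate 2 lay just above bulge replicate 1, and the difference was 0.89 ± 0.55 (SE; 95% interval -0.51 to 2.29). Without bulge replicate 2 it was 0.29 and without bulge replicate 1 it was 1.49.

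Serpinb9 inhibits granzyme B and protects cells from it. It had log2 signals of 8.04, 8.19, 7.55 and 8.01 and a difference of -0.33 ± 0.39 (SE), small beside its interval of -1.33 to 0.67, although the groups did not overlap. Without bulge replicate 1 it was -0.10 and without bulge replicate 2 it was -0.56. Serpinb1a, an inhibitor of neutrophil elastase and cathepsin G, was above background on bulge replicate 2 alone (6.62, 6.36, 6.28 and 7.84). The other Serpinb1a probe set was below background on all arrays (6.68, 5.06, 5.41 and 6.86). The other 5 clade B genes (Serpinb6b, Serpinb9b, Serpinb9c, Serpinb9g and Serpinb1b) were below background on all arrays, and their fitted differences have no bound.

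In clade A, 2 of 8 genes were above background on at least 1 array. Serpina3n is a secreted inhibitor of leukocyte elastase and granzyme B and an acute phase gene. The log2 signals were 7.49, 4.65, 8.43 and 7.55, with the lowest bulge value only just above the higher total value and total replicate 2 far below background. The difference of 1.92 ± 0.99 (SE; adjusted p of 0.632 in the principal limma fit) corresponds to at least 1.55-fold, with total replicate 1 taken at its own signal and total replicate 2 at the background level. Without total replicate 2 the difference was 0.50, and without total replicate 1 it was 3.34.

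Serpina12 encodes vaspin, a secreted inhibitor of kallikrein 7 in skin. Its log2 signals were 6.89, 8.09, 6.74 and 10.73, so the groups overlapped and both replicates numbered 2 were the high ones. The difference was 1.24 ± 1.34 (SE; 95% interval -2.15 to 4.64). Without bulge replicate 1 it was 3.24, where the trended limma model gave an adjusted p of 0.0294, and without bulge replicate 2 it was -0.75. These values are of the main probe set. The other Serpina12 probe set was below background on all arrays (2.79, 1.95, 2.56 and 3.18). Klk7, the gene of the target of vaspin, was split on the bulge arrays as the main probe set was, with log2 signals of 7.57, 8.05, 3.19 and 10.05. Klk7 was named for that link after its values had been seen. Bulge replicate 1 was also the lower for Klk8 (6.84 against 9.07) and the higher for Prss23 (11.75 against 9.82).

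The remaining 6 clade A genes were below background on all arrays. They are Serpina1b and Serpina1c (α1-antitrypsin), Serpina5 (protein C inhibitor), Serpina6 (corticosteroid-binding globulin), Serpina10 (the protein Z-dependent inhibitor) and Serpina3a. The same held for Serpinc1, the antithrombin gene, Serpind1, the heparin cofactor gene, Serpinf1, the gene of pigment epithelium-derived factor, and the clade I genes Serpini1, which encodes neuroserpin, and Serpini2. Over the 16 genes below background, log2 signals ran from 2.17 to 7.11. The α1-antitrypsin and antithrombin genes, which are expressed chiefly in liver, were thus below the background level in both sorts.

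Serping1 encodes C1 inhibitor, which controls the first proteases of complement and plasma kallikrein. Its log2 signals were 7.12, 6.69, 8.65 and 8.77, below background on both total arrays and above it on both bulge arrays. The replicates lay close together and the groups did not overlap. The difference of 1.80 ± 0.39 (SE; 95% interval 0.81 to 2.79) did not pass, with adjusted p-values of 0.174 in the principal and 0.109 in the trended limma fit. With the total arrays taken at the background level, the ratio of bulge to total is at least 2.79-fold, a bound that leaves out sampling error.

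Serpinh1 encodes HSP47, a chaperone that holds procollagen in the endoplasmic reticulum. The main probe set had log2 signals of 10.54, 10.35, 11.14 and 10.83, higher on both bulge arrays without overlap. The difference was 0.54 ± 0.38 (SE; 95% interval -0.43 to 1.51) and did not pass. The gene's other probe set gave 9.31, 9.07, 10.67 and 10.51, also without overlap, and a difference of 1.40. The size of the Serpinh1 difference therefore depends on the probe set, and the suffix of the first (_x_at) marks probes that can bind other transcripts.

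Serpinf2, the gene of α2-antiplasmin, was above background on bulge replicate 1 alone (6.96, 6.76, 7.46 and 6.10). Its groups overlapped.

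**Figure D3:**
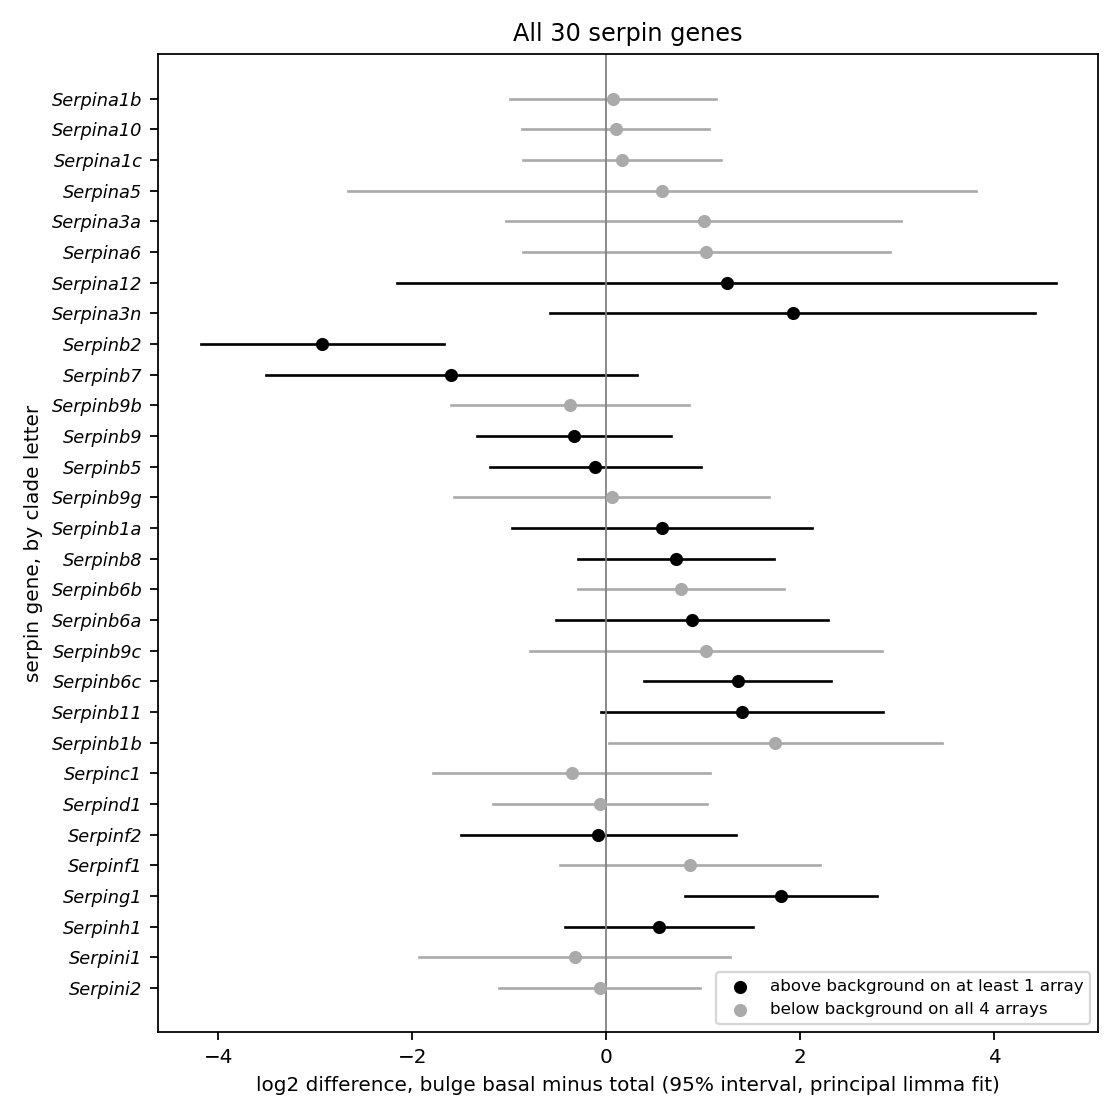
Log2 difference (bulge minus total) of all 30 serpin genes with its 95% interval from the principal limma fit, ordered by clade letter and then by difference. Black marks genes above background on at least 1 array and grey those below it on all 4. The intervals of Serpinb2, Serpinb6c, Serping1 and Serpinb1b exclude 0 before adjustment over 12393 genes.

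Other genes of the skin protease network were read from 8 lists, in the same trended fit. Of 13 genes of clotting and fibrinolysis, 0 passed, and 3 were above background on at least 1 array. Plat, which encodes tissue plasminogen activator, had log2 signals of 9.20, 8.10, 10.35 and 10.07, higher in the bulge group without overlap, and it did not pass (difference 1.56). F2, the prothrombin gene, was above background on total replicate 1 alone (7.51, 5.77, 5.91 and 5.87). Plau, the urokinase gene and the target of the Serpinb2 protein, was below background on all 4 arrays, and its receptor gene Plaur had a difference of -0.59. Plau and Plaur were named for that link after their values had been seen.

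Of 17 trypsin-like and chymotrypsin-like proteases of the epidermis, 0 passed (median -0.43). The secreted serine protease gene Htra1 had a difference of -1.08 and Prss23 of 0.24. Of 16 granule proteases of leukocytes and mast cells, among them the targets of Serpinb1a, Serpinb6a and Serpinb9, 15 were below background on all arrays. Cpa3, a carboxypeptidase of mast cells, was above it on total replicate 1 alone (7.44, 5.83, 6.85 and 6.82). Of 16 genes of complement and contact proteins 11 were measured and 0 passed (median -0.25), and the named members Cd59a and Cd55 are membrane regulators of complement. Cd59a had a difference of 0.56. Cd55 was below background on both bulge arrays (9.08, 9.50, 5.97 and 6.89), at least 4.18-fold lower, and did not pass. C1s1, a first protease of complement that C1 inhibitor blocks, had log2 signals of 7.03, 5.77, 9.86 and 7.97, below background on both total arrays. It was higher in the bulge group without overlap, as Serping1 was, did not pass (trended limma, adjusted p = 0.234), and was named after its values had been seen. The suffix of the C1s1 probe set (_s_at) marks probes shared between transcripts, so signal from close relatives cannot be separated from it.

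The next list held cathepsins, legumain, calpains and caspase 14, mostly cysteine proteases, of which some clade B serpins inhibit cathepsins. Of 15 genes, 2 fell, 0 rose and 13 did not pass. Ctss, the cathepsin S gene, fell at least 10-fold (10.66, 10.44, 5.98 and 6.40; trended limma, adjusted p = 0.0297), and it is also on the Langerhans cell and macrophage marker list. Ctsc encodes the dipeptidyl peptidase that activates granule serine proteases. It fell 5.03-fold, from log2 signals of 10.70 and 10.82 to 8.36 and 8.49 (difference -2.33 ± 0.32 (SE), trended limma, adjusted p = 0.0423). Ctsl, the cathepsin L gene, was higher in the bulge group without overlap (11.33, 11.02, 12.98 and 12.78) and did not pass, and it was named after its values had been seen. In all, 9 of the 15 were higher without overlap and 5 lower, beside 18% and 20.5% of all genes, with a median of 0.64. The 9 include Capn1 and Capn2 (calpains), Ctsa (a serine carboxypeptidase) and Ctsd (an aspartic protease).

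Of 15 serpin cofactors, receptors and protease-activated receptors, 1 fell, 0 rose and 14 did not pass. F2r, the thrombin receptor gene, had log2 signals of 12.47, 12.81, 10.40 and 10.05 and fell 5.32-fold (difference -2.41 ± 0.35 (SE), trended limma, adjusted p = 0.0449). The F2r probe set also carries the suffix _s_at of shared probes. Of 17 collagen folding enzymes and chaperones, the setting in which Serpinh1 acts, 1 rose, 0 fell and 16 did not pass. The riser was Sparc, a collagen-binding matrix protein gene rather than a folding enzyme, with log2 signals of 10.26, 10.59, 13.12 and 12.94 (6.07-fold; trended limma, adjusted p = 0.0387). The list had 9 genes higher without overlap and 1 lower, beside 18% and 20.5% of all genes, with a median of 0.39, and 4 of the 9 were below background on all arrays. Of 34 other protease inhibitors 24 were measured and 0 passed, with a median of 0.08 and a range of -2.33 to 3.45. The 2 with the highest mean were Cstb, a cystatin gene, with a difference of -0.31, and Cst3, with 0.52.

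**Figure D4:**
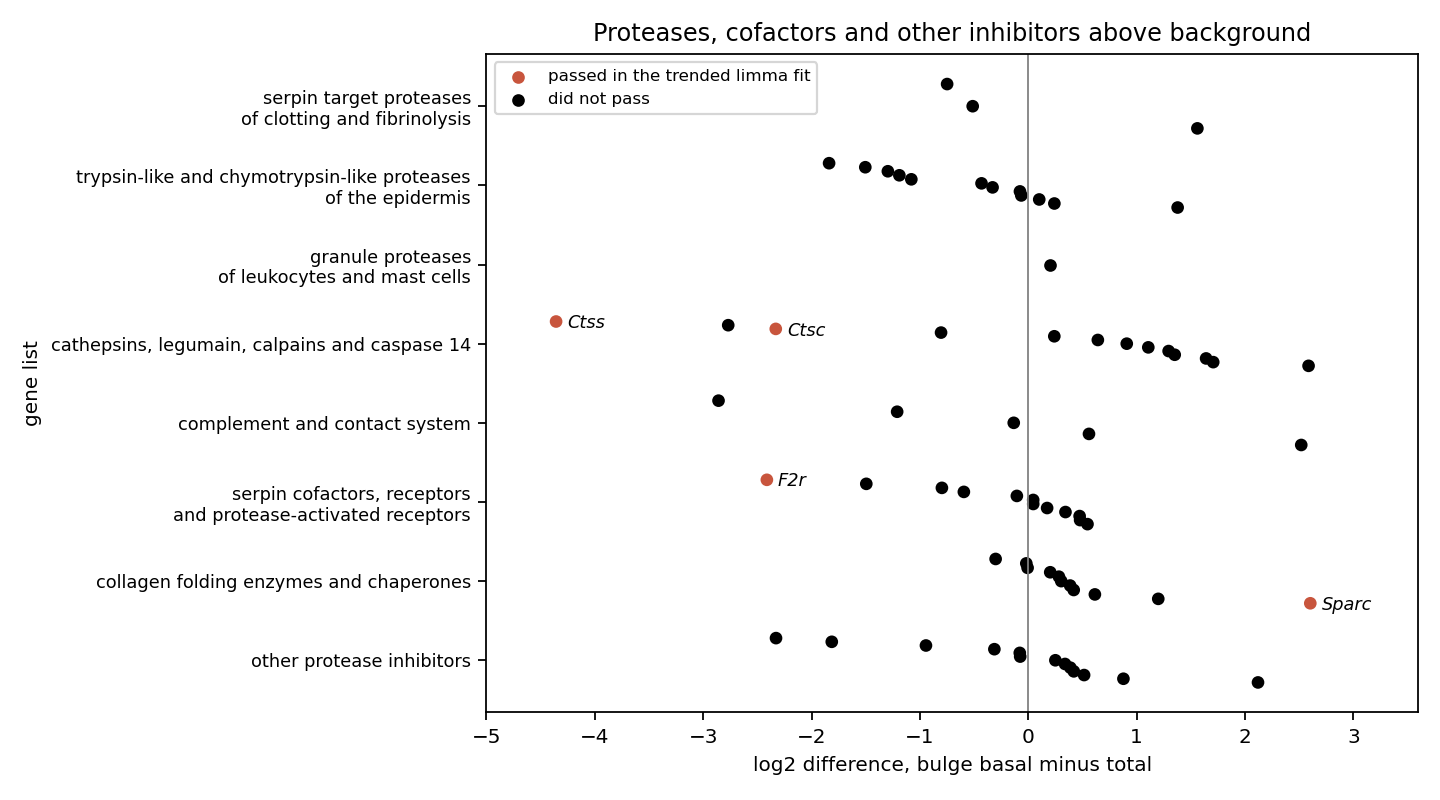
Log2 difference (bulge minus total) of the genes above background on at least 1 array in 8 lists of proteases, cofactors and inhibitors, 1 row per list. Red points, named, passed in the trended limma fit (Ctss, Ctsc, F2r and Sparc) and black points did not. Fitted differences are drawn, also where 1 group was below background.

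Marker genes of other cells also differed on the same arrays. Of 11 infundibulum and isthmus markers, 7 were lower in the bulge group without overlap and 1 higher, beside 20.5% and 18% of all genes. Of these Krt79 fell by 3.46 on the log2 scale (trended limma, adjusted p = 0.0426). Their summed signals were 43274 and 50565 on the total arrays against 12742 and 18104 on the bulge arrays. Summed suprabasal markers were 59796, 92430, 45473 and 91279, with bulge replicate 1 the lowest. On the bulge arrays replicate 1 was also the lower for Serpinb7, Serpinb2 and Serpina12. This was not particular to them, since it held for Serpinb5, Serpinb6a, Serpinb9, Serpinb6c, Serping1 and Serpinb1a as well. Replicate 1 was the higher for Serpinh1, Serpinb8, Serpinb11, Serpina3n and Serpinf2. Of 10 suprabasal markers, 1 was higher and 2 lower in the bulge group without overlap, and the groups overlapped for 7. Of the 10, Krt1 alone passed. It was low on both bulge arrays, as Serpinb2 was, and fell 9.94-fold (13.03, 13.17, 9.45 and 10.13; trended limma, adjusted p = 0.0297). Langerhans cell and macrophage markers were lower without overlap for 11 of 14 (summed signals 13339, 14485, 1707 and 2156) and T cell markers for 10 of 11 (2967, 4687, 1011 and 1245). The part of these cells in the Serpinb2, Serpinb7, Serpina12 and Serpinb9 values was not tested.

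Beside the higher values of Serping1, Serpinh1 and Serpina3n, 10 of 14 fibroblast and dermal papilla markers were below background on all 4 arrays, including Col3a1, Pdgfra, Dcn and Lum. In the same list Fbln1 rose 5.35-fold (7.39, 7.72, 10.13 and 9.83; trended limma, adjusted p = 0.0442). Col1a2 was higher without overlap (8.42, 8.16, 11.91 and 10.59) and did not pass. Thy1, which is also on the T cell marker list, was lower without overlap (9.78, 10.50, 7.03 and 8.20) and did not pass. The groups overlapped for Col1a1. Of the 14 fibroblast and dermal papilla markers, 2 were higher and 4 lower without overlap, beside 18% and 20.5% of all genes. With Thy1 included, their summed signal was 2071 and 2377 in the total group against 5810 and 3151 in the bulge group. The part of these markers in the serpin values was not tested. Endothelial markers were below background on all arrays for 9 of 10 and mast cell markers for 7 of 9. Melanocyte markers were higher without overlap for 2 of 8 and lower for 6. Bulge stem cell markers, among them Cd34 of the sort, were higher for 12 of 12, and basal keratinocyte markers for 3 of 10 (lower for 1). Sebaceous gland markers were higher for 2 and lower for 2 of 9. These counts without overlap stand beside 18% higher and 20.5% lower among all genes.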

How the data were processed

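The deposited values are linear intensity per probe set; every array had the same mean after trimming 2% of probe sets at each end (500.0). GCOS, RMA, affy 1.36 and R 2.15.1 are listed in the submitters' processing notes, and which of them made the values is not given in the sources used here. RNA (200 ng) was amplified, per the labels' protocols, from an oligo-dT T7 primer. Amplification from the 3′ end and a scale that assumes equal totals can affect levels, and the number of arrays limits precision.

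Of 22690 probe sets, 20380 had 1 symbol in the platform annotation, 691 several and 1555 none, and 64 were controls. Symbols were updated by Entrez ID where the RefSeq table (GRCm38.p6) held it (20351 probe sets); those of the 39 serpin probe sets did not change. Log2 signal was fitted on group alone with limma 3.58.1 (R 4.3.3), lmFit and eBayes, two-sided, with Benjamini-Hochberg adjustment over 12393 genes. The trended fit is an alternative to this principal fit. With 2 arrays per group an exact permutation test cannot go below p = 0.333 and was not used. As a check of the code, the fits were also run on simulated independent arrays with the spread of the total group. That run does not cover the wider spread of the bulge arrays, and no result here rests on it.

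A group below background on both arrays, or on 1 of 2, has a bound ("at least"), computed against the background level. Serpin genes above background on at least 1 array were named with values; of each of 8 partner lists, up to 4 genes that passed or otherwise the 2 with the highest mean. Alternatives were a trended or robust variance model, median centring, quantile normalization, a filter on dim genes, a floor, a pseudocount of 32, other probe set rules, a threshold of 0.01, a replicate block and each array left out. The members, lists (8 of partners, 11 of markers) and tests were chosen with earlier results of these data known. Promoter windows are RefSeq's (GRCm38.p6) and were held for 26 of the 30 genes; Serping1 and Serpinb1a were without one. Genes such as Serpine2 and Serpinb3a were not analysed here.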

Additional observations from a re-analysis of the deposited data

How the results depend on the processing

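The count of called genes depended on the variance model and on how dim genes were treated. The principal limma fit, a robust prior, median centring, quantile normalization, the mean of all probe sets, every probe set on its own and a threshold of 0.01 each called 0 genes and 0 serpin genes. The trended limma fit called 134 genes, 1 serpin gene and 4 partner genes, the filter on dim genes 222, 1 and 6, the floor at background 5 genes and 0 of both, and log2 of signal plus 32 called 37 genes, 0 serpin genes and 1 partner gene (Ctss). The trended fit on every probe set called 103 probe sets and 0 of the serpin ones. Serpinb2 kept its direction in the 17 alternatives computed for it (-3.47 to -2.38), with adjusted p-values from 0.00708 to 0.416, and passed in 4 of them. Its limma adjusted p was 0.0300 with the filter on dim genes. The 6 partner genes called with that filter were Cd55, Ctsc, Ctss, Ctsz, F2r and Sparc.

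Leaving out 1 array, the principal fit always called 0 genes. The trended fit, a combination chosen after seeing the data, called 0 to 388 genes and 0 to 3 serpin genes: 0 without either total array, 388 genes with Serpinb2 and Serpina12 without bulge replicate 1, and 350 with Serpinb2, Serpinb7 and Serpinb11 without bulge replicate 2. Serpin genes without overlap numbered 12, and 17 to 24 with an array left out, where fewer values must be separated. Their median difference of 0.56 was 0.17 to 0.62 with an array left out, 0.80 with the filter on dim genes, 0 with the floor, 0.28 with the pseudocount and 0.27 over single probe sets.

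Of the 14 named serpin genes, 10 kept their direction in every alternative. Serpinb5 turned to 0.040 with the mean of its probe sets, 0.032 and 0.20 on its other probe sets, and ranged from -0.40 to 0.18 with an array left out. Serpinf2 turned to 0.0096 with quantile normalization and 0.11 with the floor and ranged from -0.76 to 0.60 with an array left out (0.018 without total replicate 1). Serpina12 ranged from -0.75 to 3.24 and Serpinb1a from -0.21 to 1.35 with an array left out. The cause was not tested.

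Arrays of the same number differed in a related way between groups (r = 0.579 across 7249 genes, which are not independent replicates), but the titles give the pairs only a number. With the replicate block the principal limma fit called 0 genes, 0 serpin genes and 0 partner genes. With the block and the trend, chosen after seeing the data, 917 genes and 6 serpin genes passed: Serpinb2 and Serpinb7 lower, and Serpinb11, Serpinb6c, Serping1 and Serpina3n higher. Across the genes with a group mean above background, the difference replicate 1 minus replicate 2 had an SD of 0.917 in the bulge group. In the total group that SD was 0.553. Such differences between replicates limit what 2 arrays per group can show.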

Other observations

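Another 3 probe sets carried several serpin symbols and belong to no gene of the comparison. They name Serpinb9e, Serpinb9f, Serpinb9g and Serpinb9h in 1 probe set, Serpina1a and Serpina1d in another, and Serpina1b, Serpina1c and Serpina1e in the last. All 3 were below background on all arrays, with highest log2 signals of 6.54, 2.57 and 2.83.

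For the 14 named serpin genes, the median absolute difference between replicates was 0.43 on the total arrays and 0.98 on the bulge arrays. Among 8 serpin genes with more than 1 probe set, Serpinb5 and Serpinh1 had every probe set above background on all 4 arrays. For Serpinf1 and Serpinb9c, below background throughout, the probe sets had opposite signs (0.87 and -0.15, and 1.03 and -1.07).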
